A study of Homo sapiens with 6 samples.

Results

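The genes described here are 10 regulators of the step from G1 into S phase. They were chosen by symbol and are the D cyclins CCND2 and CCND3, the E cyclins CCNE1 and CCNE2, the CDK inhibitors CDKN1B and CDKN2C, the phosphatases CDC25A and CDC25B, the kinase CDK4 and the transcription factor E2F1. All 10 were found among the 56305 genes counted. RNA sequencing was carried out on MOLM13, a human acute myeloid leukemia cell line that carries the FLT3-ITD mutation and the t(9;11)(p22;q23) translocation. Cells of 3 libraries received DMSO and cells of 3 libraries received 1 μM ZW27941, a degrader that joins a ligand of METTL3, the catalytic subunit of the m6A RNA methyltransferase, to a ligand of the E3 ligase VHL. Both treatments lasted 24 h. The study used a single line, and the labels do not say that the libraries of a group came from separate cultures, so p-values measure the spread between these libraries, which may be technical.

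D cyclins bind CDK4 and CDK6, and E cyclins bind CDK2. The kinases phosphorylate the RB protein, which then releases E2F transcription factors and with them the genes of DNA replication. CDKN2C (p18) binds CDK4 and CDK6, CDKN1B (p27) mainly restrains cyclin E-CDK2, and CDC25 phosphatases remove inhibitory phosphates from CDKs. Much of this control acts on protein and phosphorylation, which RNA counts do not measure.

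Totals on genes ran from 143454176 to 178744976 counts per library, whereas the labels plan 50M raw reads per sample. Between 37.4% and 39.8% of the tallied reads were not assigned to a gene. Reads on no counted feature made up 10.5% to 12.4% of the tallied reads, and ambiguous reads 2.69% to 2.80%. These classes and reads aligned to several places covered only part of the unassigned reads, and the rest are not broken down here. ZW27941 replicate 3 had the highest share of reads aligned to several places, at 5.25%. The biological coefficient of variation was 3.11%. All 9 myeloid leukemia markers were expressed, with summed levels of 2429 to 2504 counts per 1000000 (CPM) in DMSO and 2693 to 2762 CPM in ZW27941, and 5 of the 9 rose, against 4 under RLE scaling and 3 higher and 1 lower under upper-quartile scaling. Markers of other cells summed to 1.46 to 1.81 CPM in DMSO and 1.18 to 1.71 CPM in ZW27941, with HBB and KRT5 at 0 in every library. The part of the higher myeloid markers in the results was not tested, and in bulk RNA fewer cells of a type and less RNA per cell cannot be told apart. The transcript of METTL3 was at 121 ± 1.17 CPM in DMSO and 123 ± 4.96 CPM in ZW27941 (SD, n = 3), which does not check the labels because the compound acts on the protein.

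CDKN2C rose and CCND2 fell, and these were the 2 of 10 members that passed the test (edgeR's quasi-likelihood test, Benjamini-Hochberg adjusted p under 0.05 over 20399 genes). Over all genes tested, 30.1% passed, 16.3% higher and 13.8% lower, so the members' share was no larger than that of the background. Values of 6 members did not overlap between the groups, 5 higher and 1 lower, against 41.6% of all genes tested. The 10 log2 fold changes had a median of 0.031, beside −0.0019 over all genes. The 8 members that did not pass lay between −0.0046 and 0.062 on the log2 scale, and their 95% intervals reached from −0.11 to 0.12. Shifts beyond those bounds in either direction lay outside the interval of every one of the 8. All 10 members passed the filter on low counts, with 1284 to 47849 counts per library. Over all genes, 45.8% of the calls were lower, and this share was 57.9% with upper-quartile scaling.

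**Figure D1:**
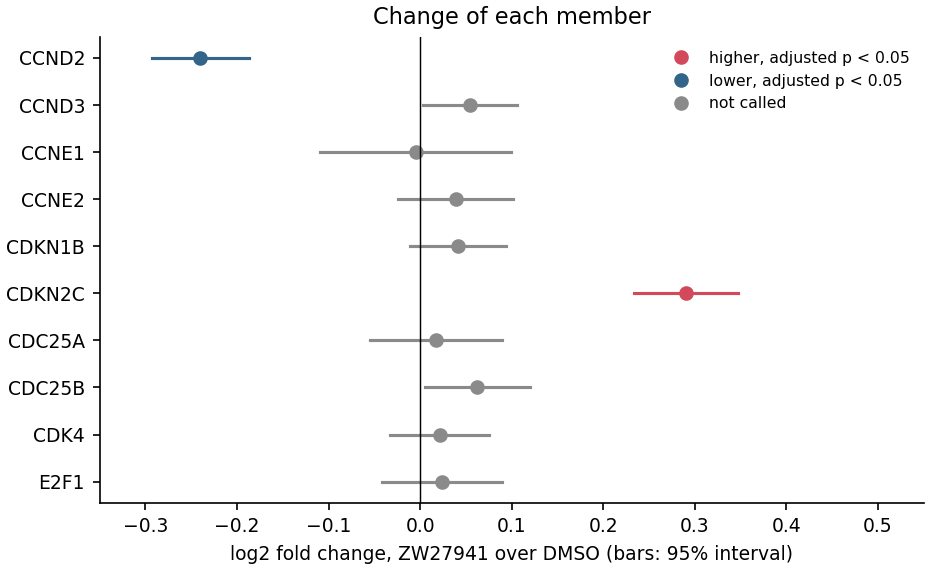
Log2 fold change of each member, ZW27941 over DMSO, on the x axis, with points for the edgeR estimate from 3 against 3 libraries and bars for its 95% interval. The bars of CCND2 at −0.24 and CDKN2C at 0.29 lie apart from the others, which cluster near 0.

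Levels were compared between genes as CPM per kb of exon, with the exons of all annotated transcripts of a gene merged. The order depends on this choice of length. With the longest coding transcript instead, 2394 bases for CCND3 and 2076 for CDK4, CCND3 would stand above CDK4. In DMSO, CDK4 was the most abundant at 50.7 ± 0.23, followed by CCND3 at 43.8 ± 0.18, CDKN2C at 35.4 ± 0.78 and CDKN1B at 28.1 ± 0.42 CPM per kb (SD, n = 3). CCND2 at 14.9 ± 0.25, CDC25B at 13.5 ± 0.15 and E2F1 at 13.2 ± 0.34 CPM per kb formed the middle of the order. CCNE2 at 7.01 ± 0.052, CDC25A at 6.19 ± 0.30 and CCNE1 at 3.63 ± 0.093 CPM per kb were lowest. Among neighbours in this order, only the ranges of CDC25B and E2F1 overlapped. CCND3 exceeded CCND2 and the third D cyclin gene, CCND1, which was at 3.53 ± 0.023 CPM per kb (SD, n = 3), and CDKN2C was more abundant than CDKN1B.

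**Figure D2:**
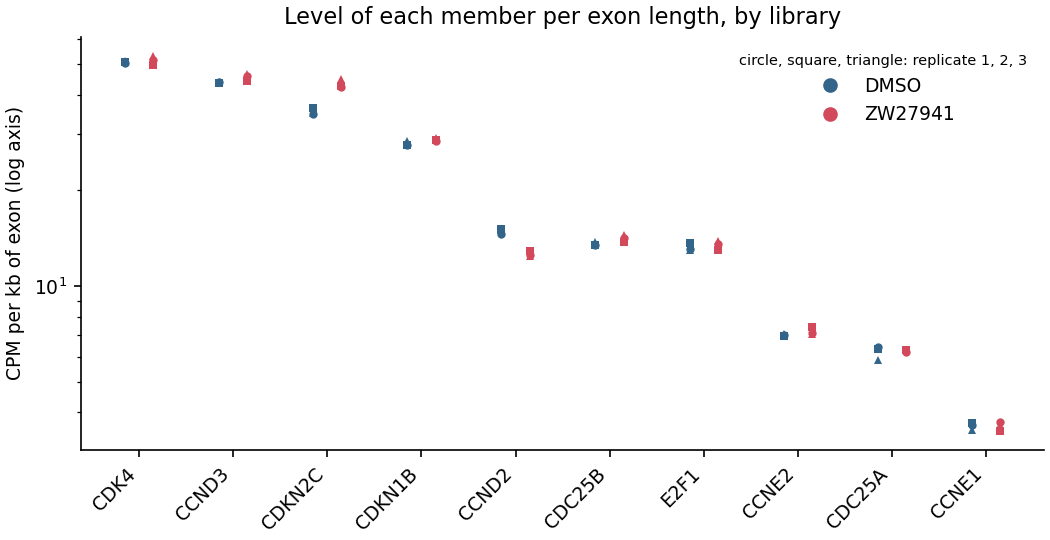
Level of each member in CPM per kb of exon on a log y axis, with genes on the x axis ordered by their DMSO mean and 1 point for each of the 6 libraries. The order runs from CDK4 at 50.7 to CCNE1 at 3.63 CPM per kb in DMSO.

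Promoters of the members were read for the letters of the E2F family, to which E2F1 belongs, and for the E-box. Windows of 250 bases before to 50 bases after each start site were available for 8 of the 10 members, with 15 start sites (RefSeq, GRCh38.p14). No window was available for CCND2 or CCNE2, so their promoters were not read. The letters TTTNGCGC, a form of the E2F site, were found on either strand in 1 promoter each of E2F1 and CDC25A, against 2.57% of the promoters of the genes tested. The E-box CACGTG, the letters bound by MYC and related factors, was found in CDK4 at 3 places and in 2 of the 3 CDKN2C windows, against 9.13% of the promoters of the genes tested. The letters do not overlap one another. Capitals mark these motifs in the 5 windows that hold one, printed 5′ to 3′ on the strand of the gene.
E2F1, chr20:33686336-33686635, minus strand: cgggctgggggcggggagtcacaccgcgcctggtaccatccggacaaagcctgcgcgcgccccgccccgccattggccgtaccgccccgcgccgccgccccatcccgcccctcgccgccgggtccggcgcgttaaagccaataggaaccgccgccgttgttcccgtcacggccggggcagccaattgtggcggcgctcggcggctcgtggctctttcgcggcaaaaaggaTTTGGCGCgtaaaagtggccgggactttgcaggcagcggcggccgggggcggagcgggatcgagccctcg
CDC25A, chr3:48188368-48188667, minus strand: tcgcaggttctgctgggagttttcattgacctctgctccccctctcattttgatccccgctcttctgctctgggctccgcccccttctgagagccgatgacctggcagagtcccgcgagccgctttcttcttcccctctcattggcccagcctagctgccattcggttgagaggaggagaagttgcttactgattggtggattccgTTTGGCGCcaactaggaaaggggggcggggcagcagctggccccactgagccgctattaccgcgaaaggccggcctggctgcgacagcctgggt
CDK4, chr12:57752261-57752560, minus strand: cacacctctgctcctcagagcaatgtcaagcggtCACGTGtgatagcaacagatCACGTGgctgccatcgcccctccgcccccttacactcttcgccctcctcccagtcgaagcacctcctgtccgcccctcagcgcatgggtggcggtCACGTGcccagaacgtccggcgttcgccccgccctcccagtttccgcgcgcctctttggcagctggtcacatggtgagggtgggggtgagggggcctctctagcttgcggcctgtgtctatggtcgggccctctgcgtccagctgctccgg
CDKN2C, chr1:50960495-50960794, plus strand: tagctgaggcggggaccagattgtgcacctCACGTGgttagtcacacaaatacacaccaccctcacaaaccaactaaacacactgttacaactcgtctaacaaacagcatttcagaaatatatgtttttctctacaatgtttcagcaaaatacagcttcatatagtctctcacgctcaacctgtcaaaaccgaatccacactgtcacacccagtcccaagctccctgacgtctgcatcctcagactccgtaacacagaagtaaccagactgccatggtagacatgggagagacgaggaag
CDKN2C, chr1:50969995-50970294, plus strand: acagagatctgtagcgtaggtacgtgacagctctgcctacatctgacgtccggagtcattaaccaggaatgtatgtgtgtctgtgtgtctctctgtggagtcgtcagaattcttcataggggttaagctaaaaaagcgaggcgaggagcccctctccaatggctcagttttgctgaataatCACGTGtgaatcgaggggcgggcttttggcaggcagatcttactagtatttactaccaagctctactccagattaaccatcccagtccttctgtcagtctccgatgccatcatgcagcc
Counted from the start site, with −1 as the last base before it, the E2F letters begin at −20 in E2F1 and at −44 in CDC25A. The E-boxes of CDK4 begin at −216, −196 and −101, and those of CDKN2C at −220 and −69 of their own windows. Of the 4 genes shown, CDKN2C alone passed the test, and CDK4 had a log2 difference of 0.021. Any part of the motifs in these values was not tested. A match in these windows is a description of letters and not of a bound site.

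The D cyclins are the link between growth signals and the cell cycle, and the 2 genes did not move together. CCND2 (chr12:4273772-4305350, plus strand, GRCh38) was at 105, 108 and 108 CPM in DMSO and at 89.9, 92.2 and 89.1 CPM in ZW27941. All 3 treated libraries lay below all controls. CCND2 fell by 15.3%, a log2 fold change of −0.24 with a standard error of 0.026 and a 95% interval from −0.29 to −0.19 (edgeR's quasi-likelihood test, Benjamini-Hochberg adjusted p = 3.72e-07). CCND3 (chr6:41934933-42050357, minus strand) was at 254, 253 and 255 CPM in DMSO and at 265, 256 and 269.8 CPM in ZW27941. Its groups did not overlap either, with the treated libraries higher, but the log2 difference of 0.054 (95% interval 0.0028 to 0.11) did not pass (edgeR's quasi-likelihood test, Benjamini-Hochberg adjusted p = 0.105). Counts of CCND2 amounted to 41.2%, 42.6% and 42.1% of those of CCND3 in DMSO and to 33.9%, 35.9% and 33.0% in ZW27941. This ratio differed by −0.29 on the log2 scale, and its exact two-sided permutation p was 0.1, the smallest that 3 against 3 libraries allow (Benjamini-Hochberg adjusted p = 0.15 over 6 ratios). The 2 cyclins summed to 361 ± 2.20 CPM in DMSO and 354 ± 5.24 CPM in ZW27941 (SD, n = 3), a smaller relative difference than that of CCND2 alone. Of the exon bases of CCND2, 1.76% are shared with the antisense gene CCND2-AS1, which was at 0.132 CPM in DMSO. A larger part, 13.8%, is shared on the same strand with the protein-coding gene AC008012.1 of the GENCODE v29 annotation. That symbol is not among the genes counted.

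E cyclins drive CDK2 at the start of S phase and normally peak there. CCNE1 (chr19:29811898-29824308, plus strand) was at 9.31, 9.48 and 9.01 CPM in DMSO and at 9.49, 8.90 and 9.30 CPM in ZW27941. The groups overlapped, and the log2 difference was −0.0046 (95% interval −0.11 to 0.0996). CCNE2 (chr8:94879770-94896678, minus strand) was at 30.9, 30.6 and 31.0 CPM in DMSO and at 31.4, 32.7 and 31.0 CPM in ZW27941. The treated libraries were higher without overlap, by a margin in the third library smaller than the spread within either group, and the log2 difference was 0.039 (95% interval −0.024 to 0.10). Neither E cyclin passed the test (edgeR's quasi-likelihood test, Benjamini-Hochberg adjusted p = 0.955 for CCNE1 and 0.371 for CCNE2). Of the exon bases of CCNE2, 37.1% lie opposite exons of INTS8, a subunit of the Integrator complex, which fell from 87.8 to 82.7 CPM (log2 fold change −0.087, adjusted p = 0.0115). The strand setting of the counting is not given in the sources used here. Reads over such shared exons may therefore have been tallied as ambiguous and left out, which would lower the CPM per kb of CCNE2.

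Among the CDK inhibitors, CDKN2C rose and CDKN1B did not pass the test. CDKN2C (chr1:50960745-50974633, plus strand) was at 115, 120.2 and 117 CPM in DMSO and at 140.0, 141 and 149 CPM in ZW27941. The lowest treated library exceeded the highest control by more than the range of either group. The rise was 22.3%, a log2 fold change of 0.29 with a standard error of 0.028 and a 95% interval from 0.23 to 0.35 (edgeR's quasi-likelihood test, Benjamini-Hochberg adjusted p = 8.22e-08). CDKN1B (chr12:12715058-12722371, plus strand) was at 78.2, 78.3 and 80.2 CPM in DMSO and at 80.4, 81.2 and 81.9 CPM in ZW27941. Its groups were separate by a narrow margin, and the log2 difference was 0.041 (95% interval −0.011 to 0.093, Benjamini-Hochberg adjusted p = 0.243 in edgeR's quasi-likelihood test). Relative to its partner CDK4, CDKN2C had 72.1%, 74.9% and 72.2% as many counts in DMSO and 85.9%, 89.7% and 88.5% in ZW27941. That ratio was 1.21-fold higher, with an exact two-sided permutation p of 0.1 (Benjamini-Hochberg adjusted p = 0.15 over 6 ratios).

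The other inhibitors of both families gave a mixed picture. CDKN1A (p21), the p53-induced inhibitor of the Cip/Kip family, was at 315, 333 and 330.3 CPM in DMSO and at 278, 268 and 275 CPM in ZW27941. It fell by 0.25 on the log2 scale (95% interval −0.31 to −0.20, Benjamini-Hochberg adjusted p = 2.26e-07 in edgeR's quasi-likelihood test), so that CDKN1A and CDKN2C moved in opposite directions. CDKN2D (p19), another inhibitor of the INK4 family, was at 19.0 CPM in DMSO and 19.5 CPM in ZW27941 and did not pass (adjusted p = 0.49). CDKN1C was low, at 0.533 CPM in DMSO and 0.429 CPM in ZW27941, with 59 to 97 counts per library. It did not pass either (adjusted p = 0.215 in edgeR's quasi-likelihood test). CDKN2A and CDKN2B had 0 counts in all 6 libraries, which allows up to 0.0168 to 0.0209 CPM by library, a limit of 3 counts that covers counting error only. Per kb of exon in DMSO, CDKN2C at 35.4 CPM stood above CDKN2D at 12.6 ± 0.33 CPM and below CDKN1A at 107 ± 3.13 CPM (SD, n = 3).

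**Figure D3:**
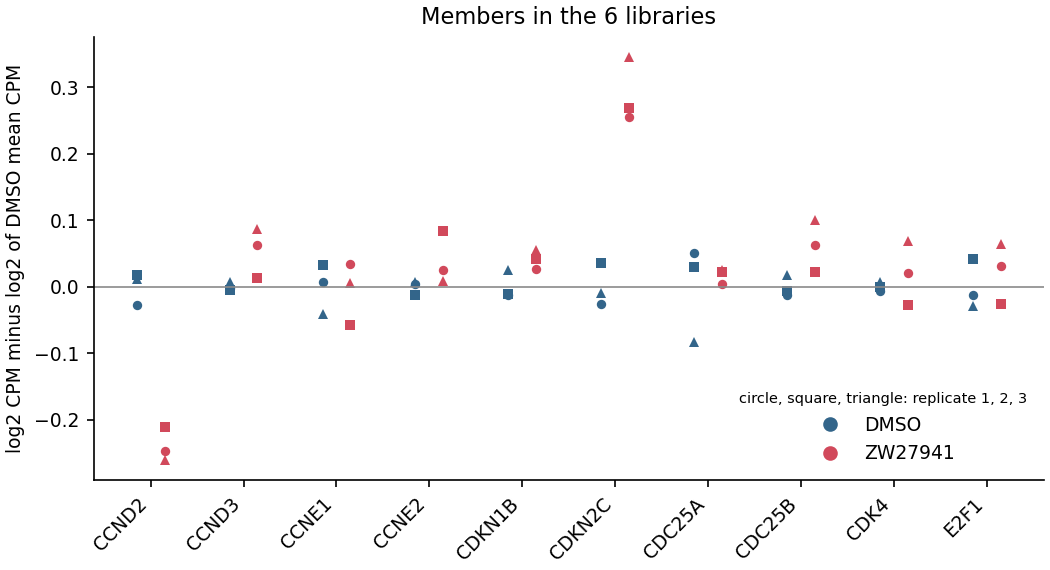
Level of each member in each library as log2 CPM minus the log2 of the DMSO mean CPM on the y axis, with members on the x axis and 3 libraries per group. Treated libraries of CCND2 lie near −0.21 to −0.26 and those of CDKN2C near 0.25 to 0.35, while the treated libraries of the other members stay close to the controls.

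The CDC25 phosphatases showed no change that passed the test. CDC25A acts mainly at G1/S on CDK2 and CDC25B at the entry into mitosis on CDK1. CDC25A (chr3:48157146-48188402, minus strand) was at 26.4, 26.0 and 24.1 CPM in DMSO and at 25.6, 25.9 and 25.9 CPM in ZW27941. Its groups overlapped, and the log2 difference was 0.017 (95% interval −0.055 to 0.089, Benjamini-Hochberg adjusted p = 0.757 in edgeR's quasi-likelihood test). CDC25B (chr20:3786772-3806121, plus strand) was at 57.9, 58.2 and 59.2 CPM in DMSO and at 61.0, 59.3 and 62.7 CPM in ZW27941. The treated libraries were higher without overlap, although replicate 2 exceeded the highest control by little. The log2 difference was 0.062, or 4.42%, with a standard error of 0.028 and a 95% interval from 0.0053 to 0.12 (edgeR's quasi-likelihood test, unadjusted p = 0.0337, Benjamini-Hochberg adjusted p = 0.0936). This interval lay above 0, but it is on the TMM scale and is not adjusted for the number of genes tested. With upper-quartile scaling the log2 difference was 0.039 (edgeR's quasi-likelihood test, Benjamini-Hochberg adjusted p = 0.318). Counts of CDC25A were 40.7% to 45.6% of those of CDC25B in DMSO and 41.4% to 43.6% in ZW27941, with overlap between the groups (exact two-sided permutation p = 0.5).

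The study also measured CDC25B and CDKN1A by RT-qPCR relative to GAPDH, and those measurements were not analysed here. The same scale was therefore formed from the counts. GAPDH, a glycolytic enzyme, was at 3961, 4088 and 4121 CPM in DMSO and at 3635, 3678 and 3731 CPM in ZW27941. It fell by 0.14 on the log2 scale (95% interval −0.20 to −0.085, Benjamini-Hochberg adjusted p = 0.000343 in edgeR's quasi-likelihood test), and this call held with each of the 3 other scalings. Counts of CDC25B were 1.46%, 1.42% and 1.44% of those of GAPDH in DMSO and 1.68%, 1.61% and 1.68% in ZW27941. On this scale CDC25B was 1.15-fold higher in ZW27941, with no overlap (exact two-sided permutation p = 0.1, Benjamini-Hochberg adjusted p = 0.15 over 6 ratios). The difference of 0.20 on the log2 scale compares with 0.062 without a reference gene. Relative to ACTB, cytoplasmic actin, which rose by 0.15 (adjusted p = 0.000112), the difference was −0.088, again with no overlap (exact permutation p = 0.1). Relative to TBP, the TATA-binding protein, it was 0.0016, and the groups overlapped (exact permutation p = 1). The direction of the CDC25B difference on a relative scale thus turned on the reference gene; ACTB and TBP were chosen after GAPDH was seen to change. CDKN1A was lower on all 4 scales, by −0.11 against GAPDH, −0.40 against ACTB, −0.31 against TBP and −0.25 without a reference gene.

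**Figure D4:**
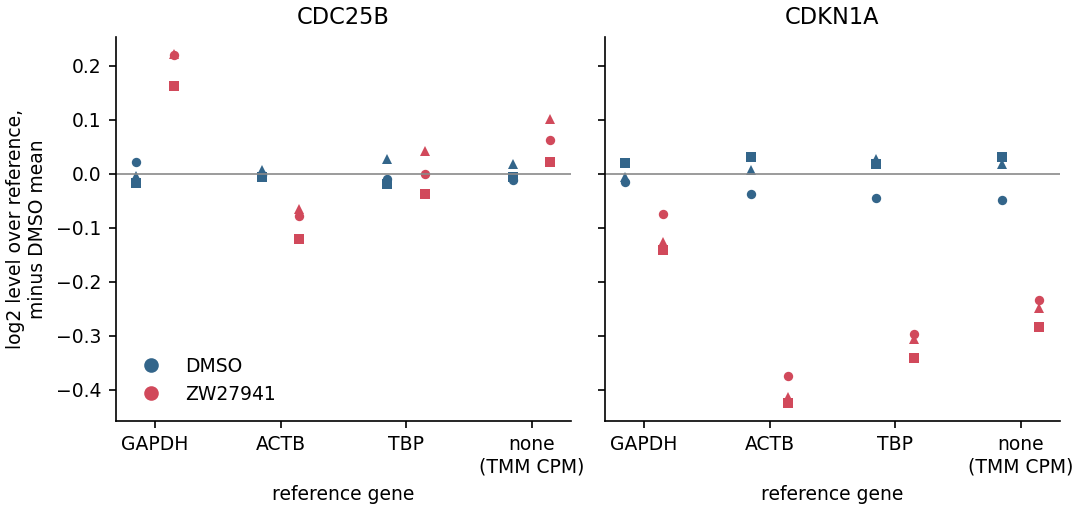
Log2 level of CDC25B (left) and CDKN1A (right) in each library relative to GAPDH, ACTB, TBP or no reference gene, minus the DMSO mean, for 3 libraries per group. Treated CDC25B libraries lie above the controls with GAPDH, below them with ACTB and among them with TBP, whereas CDKN1A lies below the controls on each scale.

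CDK4, the catalytic partner of the D cyclins, and E2F1, a transcription factor restrained by RB, overlapped between the groups. CDK4 (chr12:57747727-57756013, minus strand) was at 159.9, 160.5 and 161 CPM in DMSO and at 163, 158 and 168 CPM in ZW27941, a log2 difference of 0.021 (95% interval −0.033 to 0.075). E2F1 (chr20:33675683-33686404, minus strand) was at 32.8, 34.1 and 32.5 CPM in DMSO and at 33.8, 32.5 and 34.6 CPM in ZW27941, a log2 difference of 0.024 (95% interval −0.042 to 0.0900). The treated libraries of CDK4 spread to either side of the controls, and those of E2F1 spanned nearly the whole control range and beyond. Neither passed (edgeR's quasi-likelihood test, Benjamini-Hochberg adjusted p = 0.591 for CDK4 and 0.622 for E2F1). Of the exon bases of CDK4, 43.2% lie opposite exons of TSPAN31, a tetraspanin gene, which fell from 39.5 to 35.6 CPM (log2 fold change −0.15, adjusted p = 0.00128). As for CCNE2, reads over these bases may have been left out of the counts.

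The letters GGACT, a common form of the sequence that METTL3 methylates, were counted in the longest coding transcript of each member. CDKN2C held 6 in 2904 bases, or 2.07 per kb, the highest density among the members and at percentile 92.2 of 12918 protein-coding genes tested. CDC25A, which did not pass the test, followed with 1.59 per kb, and CCND2 held 0.772 per kb, beside a median of 0.942 over those genes. CDC25B held 0.556, CDK4 0.482 and CDKN1B 0.376 per kb, the lowest of the 10, and none of these passed the test. A relation of this density to the changes was not tested, and methylation itself was not measured in these libraries.

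The rest of the pathway is given by 5 lists. Of the other G1/S machinery (cyclins, CDKs, inhibitors, RB proteins and E2F factors), 23 of 25 genes were tested, and 5 rose and 3 fell, with a median log2 fold change of −0.0035 that became 0.0065 under library size only. The genes with the lowest p were CDKN1A, RB1, the pocket protein that holds E2F, at −0.13, and E2F8, a repressor of the family, at 0.13. Of 16 genes that act in the turnover of these proteins, 3 rose and 2 fell, with a median of 0.017. The balance turned with the scaling, since 2 rose and 3 fell with a median of −0.0068 under upper-quartile scaling, and 5 rose and 2 fell under library size only. DDB1, an adaptor of CUL4 ligases, changed by −0.10, CCNF, an F-box protein, by 0.12 and FBXO5, an inhibitor of the APC/C ligase, by 0.10. Without DMSO replicate 1, 3 of the turnover genes passed in place of 5.

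Of 12 genes of the CDC25 axis, which includes the kinases that act on CDC25 and the CDK1 complex, 5 rose and 0 fell, with a median of 0.057. With upper-quartile scaling, 4 rose and the median was 0.034. Under the alternatives and with each library left out, 4 or 5 of these genes passed. PLK1, a mitotic kinase, rose by 0.17, BORA, its activator, by 0.18 and CCNB1, the cyclin of CDK1, by 0.14 on the log2 scale. Of 20 E2F target genes, 11 rose and 1 fell, with a median of 0.068, or 0.045 with upper-quartile scaling, under which 8 rose. Without DMSO replicate 3, 7 of these genes rose in place of 11. TK1, thymidine kinase, rose by 0.28, MCM3, a subunit of the replicative helicase, by 0.24 and MYBL2, a transcription factor of the cell cycle, by 0.22.

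Of the 21 p53 targets tested of 22, 2 rose and 13 fell, with a median of −0.11. SESN2, a stress-induced sestrin, fell by 0.35, BBC3, the BH3-only protein PUMA, by 0.38 and CDKN1A, which is in this list and in that of the G1/S machinery, by 0.25 on the log2 scale. With the 3 other scalings, 13 to 15 of these genes fell and 2 rose. These counts stand beside 16.3% of all genes that rose and 13.8% that fell, and the lists were described by counts and medians without a test of the list.

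**Figure D5:**
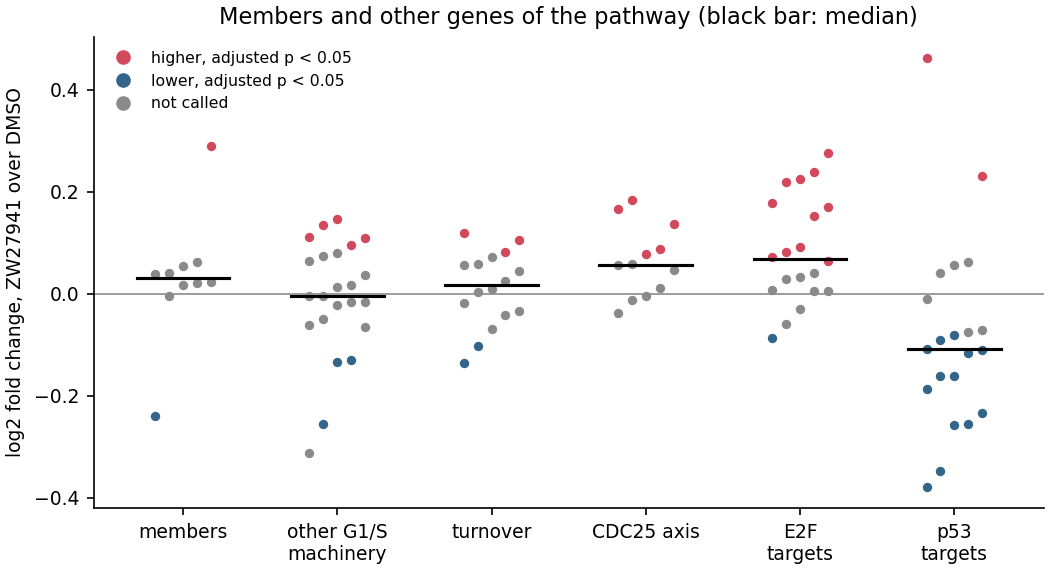
Log2 fold change of each gene, ZW27941 over DMSO, for the 10 members and 5 lists of other pathway genes, with black bars for medians and colours for the direction of genes with an adjusted p under 0.05 in edgeR. Medians lie at 0.031 for the members, 0.068 for the E2F targets and −0.11 for the p53 targets.

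A change of the size of CCND2's was common among the genes called. Of those genes, 31.6% had an absolute log2 fold change at least as large as that of CCND2, with a median of 0.166 over all genes called.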

How the data were processed

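Total RNA of MOLM13 cells after 24 h in DMSO or ZW27941 (3 libraries per group) was sequenced on an Illumina NovaSeq with paired reads. The deposited files hold raw counts per gene symbol made by the authors with HTSeq, without normalization. The submitters' processing notes list HISAT2, SAMtools 1.19.2, HTSeq 2.0.3 and hg38. The annotation and the strand setting are not given in the sources used here. The 5 tallies of reads not assigned to a gene were left out.

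The counts were fitted with edgeR 4.0.16 in R 4.3.3 (TMM factors of 0.994 to 1.009, filterByExpr, quasi-likelihood test, Benjamini-Hochberg adjustment over 20399 genes, threshold 0.05). CPM are TMM-scaled. Intervals are 95% intervals from the fit and cover the spread between libraries. Ratios of counts within libraries were compared by exact two-sided permutation tests. Alternatives were RLE, upper-quartile and library-size scaling, other filters, DESeq2 1.42.0, limma-voom (limma 3.58.1), the replicate number as a block, thinning to equal depth and each library left out. ACTB and TBP as reference genes were chosen after seeing the data. The fit was checked on simulated counts of 20127 genes with a common spread. Of 100 genes changed by 0.25 on the log2 scale, 89 were recovered, and of 100 changed by 0.5, 100 were. There were 9 false calls. Shifts smaller than 0.25 were not simulated.

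Members and gene lists were chosen with earlier results of these data known. Genes named are the members, CDKN1A, GAPDH and METTL3, some genes whose exons overlap those of a member, markers without counts, and the 3 called genes with the lowest p in each list. CCND1, CDKN2A, CDKN2B, CDKN2D, CDKN1C, ACTB and TBP were named after their values were seen. Positions and exon lengths came from GENCODE v29 (GRCh38), which need not be the annotation used for counting.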

Additional observations from a re-analysis of the deposited data

How the results depend on the processing

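With 2 of 10 members called, the count was the same under all 15 alternatives. CCND2 ranged from −0.26 to −0.23 and CDKN2C from 0.26 to 0.31 on the log2 scale and both passed in every one, whereas CDC25B passed in none (0.039 to 0.081, adjusted p from 0.0506 to 0.318). The number of genes called ran from 5674 to 6287 over 9 alternatives and from 4836 to 6134 when a library was left out. With upper-quartile scaling, log2 fold changes were −0.0062 for CDC25A, −0.0023 for CDK4 and −0.010 for METTL3. CCNE1 was at 0.0055 with scaling by library size only and at 0.0010 with no filter on low counts. E2F1 kept a positive value of 0.00050 with upper-quartile scaling and of 0.0011 without ZW27941 replicate 3, and CCNE2 one of 0.015 with upper-quartile scaling and of 0.016 without ZW27941 replicate 2. None of these genes passed under any alternative. With each library left out in turn, CCNE1 ran from −0.025 to 0.019, CDC25A from −0.022 to 0.043, CDK4 from −0.0054 to 0.044, METTL3 from −0.023 to 0.035, the ratio of CCNE1 to CCNE2 from −0.072 to 0.0036 (log2) and the called turnover genes from 3 to 5. The sign turned without DMSO replicate 2 and without ZW27941 replicate 2 for CCNE1, without ZW27941 replicate 2 for the ratio, without DMSO replicate 3 for CDC25A and without ZW27941 replicate 3 for CDK4 and METTL3, and the cause was not tested. In place of the ratio to GAPDH, CDC25B differed by 0.062 with no reference gene, −0.088 with ACTB and 0.0016 with TBP, and CDKN1A by −0.25, −0.40 and −0.31. The labels do not say whether libraries of the same replicate number were paired. Deviations of same-numbered libraries from their group means, over all genes tested, correlated at −0.012, 0.012 and 0.017. Counting noise in such a correlation could hide a weak pairing. With the replicate number as a block 6010 genes were called, against 6149 without it. The block changed no call of a member.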
